A study of Oryza sativa with 2 samples.

Results

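The genes that lie beside *YL-1* on rice chromosome 1 were read as a group in leaf RNA. They are the entries of the deposited table whose locus ID runs from LOC_Os01g16000 to LOC_Os01g18200, with *YL-1* itself (LOC_Os01g17170) left out. There were 130 such entries of 42152 in all, and 62 of them had a mean of at least 1 FPKM over the libraries and were compared. FPKM is the number of fragments of a transcript, scaled by transcript length and by how many fragments were mapped in the library.

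One library came from wild-type plants of the *indica* cv. Zhongjiazao 17. The other came from the *yl-1* mutant, which was found in a library of EMS-treated plants of the same cultivar. Leaves were the tissue of both, how many plants were pooled is not stated, and seedlings were kept at 26°C under a light intensity of 300 μmol m−2 s−1. Each genotype is a single library, so the spread between plants is unknown, no test between genotypes could be run, and the differences below are between these libraries. The genotype names follow the deposited columns, and the libraries are called WT-labelled and *yl-1*-labelled below. The published list of selected genes prints values of these columns under the opposite genotype names. Of 23 listed genes found here, 22 had their listed wild-type value in the *yl-1* column and 18 their listed *yl-1* value in the wild-type column. The number that matched the columns of the same name was 0. Every direction below therefore turns around if the headings of that list are the right ones.

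YL-1 is a subunit of the cyclase that closes the fifth ring of the chlorophyll molecule. Mutations made by EMS, an alkylating agent that mostly changes G:C to A:T pairs, fall all over the genome. A recessive mutation is found by linkage, since markers close to it are inherited together with the yellow leaf. Genes around such a mutation therefore stay attached to it through crosses, and their transcripts form the local surroundings of the mapped gene. The study describes crosses of *yl-1* to other cultivars for mapping, and no cross is described for the plants of these libraries. Rice locus IDs of this kind are numbered in ascending order along each chromosome, so the order of IDs gives the order of genes but not their distance in bases.

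The genetic interval of *YL-1* was bounded by the microsatellite marker RM10622 and the insertion/deletion marker Indel8. The primers of these markers are shown because they delimit the mapped interval. The study predicted only a few genes in that interval, so it is much smaller than the range of 130 entries, which is called the neighbourhood below. They are written 5′ to 3′ in lower case, with no base singled out.
RM10622 forward: cgcggttaatgtcatctgattgg
RM10622 reverse: ccatacttcgagatccaagactgacc
Indel8 forward: ccattaggtctttcttgtgcc
Indel8 reverse: gtccgtaggtggtgttgg
The RM10622 primers are 23 and 26 bases long with a GC content of 47.8% and 50.0%. Those of Indel8 are 21 and 18 bases long with 47.6% and 61.1%. Which entries lie between the markers was not analysed here, since no genome sequence was used. None of the 130 IDs matched the RefSeq gene table of assembly ASM3414082v1, and 1 entry, *Rpl5*, is paired with a name by the study. The others are addressed by ID.

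Transcripts of photosynthetic tissue were looked at first. *PsbO*, a subunit of the oxygen-evolving complex, stood at 3824 FPKM in the WT-labelled library and 5206 FPKM in the *yl-1*-labelled library, rank 16 of all entries by mean. *PSI-N* and *PsaL*, subunits of photosystem I, ranked 22 and 40, *Psb28* of photosystem II ranked 233 and *YL-1* 111. These are abundant genes from the study's list, in which *PsbP* and *PsbR* of photosystem II were low. No marker of another organ was looked at, so the levels show green tissue and do not tell leaf from other green organs. The table held 20902 entries above 0 in the WT-labelled library and 19955 in the *yl-1*-labelled library. The number of reads is unknown, so no counting interval is given for a level.

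Transcripts were found over much of the neighbourhood. A mean of at least 1 FPKM was reached by 47.7% of the flanking entries (62 of 130, exact 95% binomial interval 38.9% to 56.6%), against 34.5% of the whole table and 39.6% of chromosome 1. The interval takes entries as independent draws. It does not cover the spread between plants or between regions of the genome, which was wide (below), so it is no test against the table. Over a wider range, from LOC_Os01g15070 to LOC_Os01g19270, the share was 39.9%, like that of the chromosome. A further 18 entries were above 0 with a mean of 0.0390 to 0.789 FPKM, and 50 (38.5%) were listed at 0 in both libraries, against 48.5% of the table. In the WT-labelled library 78 entries were above 0, and in the *yl-1*-labelled library 77. Among the 62 compared entries the median level was 7.15 FPKM, close to the 7.36 FPKM of all 14559 compared entries. There were 22 at 10 FPKM or more, 3 of them above 100 FPKM, and 40 between 1 and 10 FPKM.

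**Figure D1:**
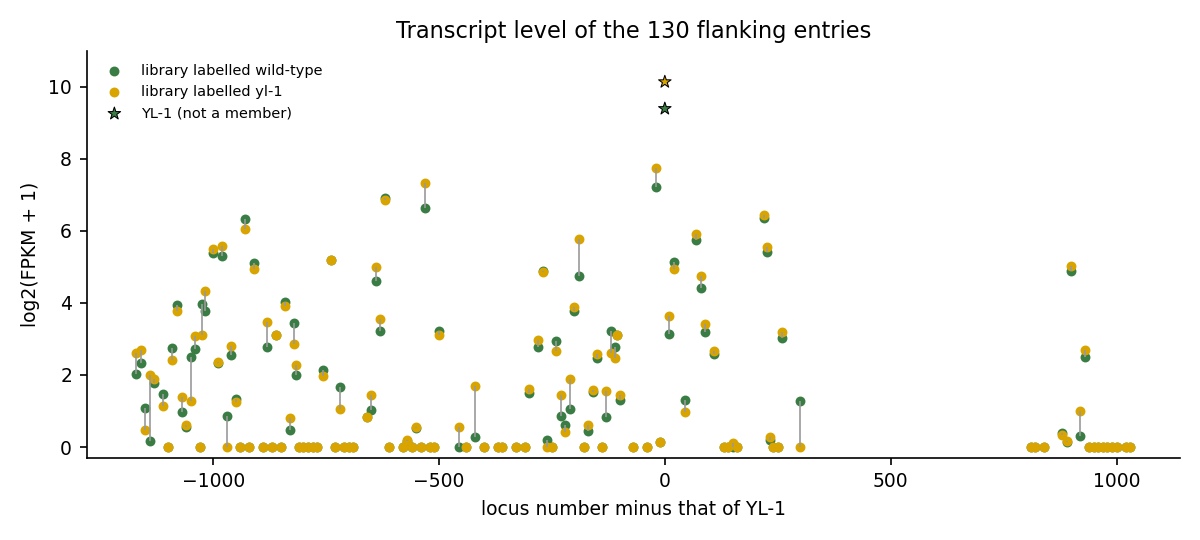
Level of each flanking entry as log2(FPKM + 1) against its locus number minus that of *YL-1*, with 1 green point for the WT-labelled library and 1 yellow point for the *yl-1*-labelled library, joined by a line. Stars are *YL-1*, which stands above all 130 entries. A block of 9 entries at 0 lies at the far right.

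Equal ranges of locus numbers on the other chromosomes were mostly less transcribed. The same numbers on chromosomes 2 to 12 gave shares of compared entries from 7.79% (6 of 77, chromosome 5) to 53.4% (of 189 entries, chromosome 3), and chromosome 3 alone was above the *YL-1* neighbourhood. On chromosome 1 itself, the adjacent range of equal width before it had 36.9% (62 of 168) and the one after it 22.9% (32 of 140). The same number falls at another place relative to the centromere on each chromosome, so these ranges differ in more than their neighbours. They are given as a description.

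*YL-1* sat inside the longest stretch of detected genes of the neighbourhood. All 9 entries from LOC_Os01g17150 to LOC_Os01g17279 were above 0 in both libraries, and *YL-1* stands between LOC_Os01g17160 and LOC_Os01g17180. Stretches of at least 9 such entries were 180 of the 8037 in the whole table, and the longest held 22. The whole-table count includes *YL-1*, which makes this stretch longer there, so the lengths are not matched exactly. Nor does the share of stretches say how often a detected gene lies in a long one, since long stretches hold more genes. The 7 entries that follow *YL-1* directly, LOC_Os01g17180 to LOC_Os01g17279, all had a mean of at least 1 FPKM.
Silent stretches lay further out. The longest was at the upper end, where all 9 entries from LOC_Os01g18110 to LOC_Os01g18200 were listed at 0 in both libraries. The range ends there, so this stretch is cut off and may go on past it. In the whole table, where stretches are not cut, 314 of 8026 silent stretches held at least 9 entries, up to 33. The table holds no entry between LOC_Os01g17470 and LOC_Os01g17980, so the higher side is thin, with 35 entries (12 compared) against 95 (50 compared) on the lower side.

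*YL-1* was by far the most abundant transcript of the region. It stood at 671 FPKM in the WT-labelled library and 1124 FPKM in the *yl-1*-labelled library, and its mean was 4.99 times that of the most abundant neighbour. That neighbour was *Rpl5* (LOC_Os01g17150), which encodes a protein of the large ribosomal subunit and lies 2 entries before *YL-1*. It was at 148 FPKM in the WT-labelled library and 212 FPKM in the *yl-1*-labelled library, a ratio of 1.44 and a log2 ratio of 0.52 after adding 1 FPKM to both values, as for all log2 ratios below. *Rpl5* was selected by the study on these libraries, so it is no independent evidence of direction. Its mean was above that of 98.7% of the entries in the table. In RNA of whole leaves, more cells of a type and more RNA per cell cannot be told apart.
Between *Rpl5* and *YL-1* lies LOC_Os01g17160, which was barely detected, at 0.0922 and 0.0958 FPKM in the WT-labelled and *yl-1*-labelled libraries. A pair of highly transcribed genes is thus parted by a nearly silent one. Before *Rpl5*, LOC_Os01g17100 and LOC_Os01g17130 were listed at 0 in both libraries.

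Next to *YL-1* on the other side, the differences went both ways. LOC_Os01g17180, the first entry after it, was at 7.72 FPKM in the WT-labelled library and 11.5 FPKM in the *yl-1*-labelled library, a log2 ratio of 0.52 like that of *Rpl5*. LOC_Os01g17190 was at 34.4 and 29.7 FPKM in the same order (-0.21). LOC_Os01g17214 was at 1.46 and 0.962 FPKM (-0.33), a low level at which the added 1 FPKM weighs most. The entries around the mutated gene therefore did not share 1 direction.
Further along, LOC_Os01g17240 was at 52.7 FPKM in the WT-labelled library and 58.9 FPKM in the *yl-1*-labelled library (0.16). LOC_Os01g17250 was at 20.3 and 25.7 FPKM (0.32). With the FPKM of the libraries scaled to equal sums, these fell to 0.0037 and 0.17.
On the lower side, the nearest compared entries before *Rpl5* were modest in level. LOC_Os01g17070 was at 1.49 FPKM in the WT-labelled library and 1.70 FPKM in the *yl-1*-labelled library (0.11). LOC_Os01g17065 hardly parted, with 7.68 and 7.57 FPKM (-0.018). LOC_Os01g17060 was lower in the *yl-1*-labelled library, with 5.82 and 4.56 FPKM (-0.29), and so was LOC_Os01g17050, with 8.25 and 5.09 FPKM (-0.60). Of the 10 compared entries nearest *YL-1*, 5 on each side, the ratios thus ran from -0.60 to 0.52, and *YL-1* itself had 0.74.

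Over the whole neighbourhood, most entries differed little between the libraries. Of the 62 compared, 58 lay within 2-fold and 49 within 1.5-fold. In the whole table, 2.50% of compared entries were at least 2-fold higher in the *yl-1*-labelled library and 3.65% at least 2-fold lower. At 1.5-fold these shares were 7.71% and 9.57%, and the flanking entries past it were 8 higher and 5 lower. The middle of the distribution, from the first to the third quartile, ran from -0.10 to 0.35 on the log2 scale, and that of all compared entries from -0.23 to 0.24. The median size of the difference, whatever its direction, was 0.26 for the flanking entries and 0.24 for the table. Of the compared neighbours, 6 differed more than *YL-1* (0.74), whatever the direction. The share of the whole table that did so is not given here.

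**Figure D2:**
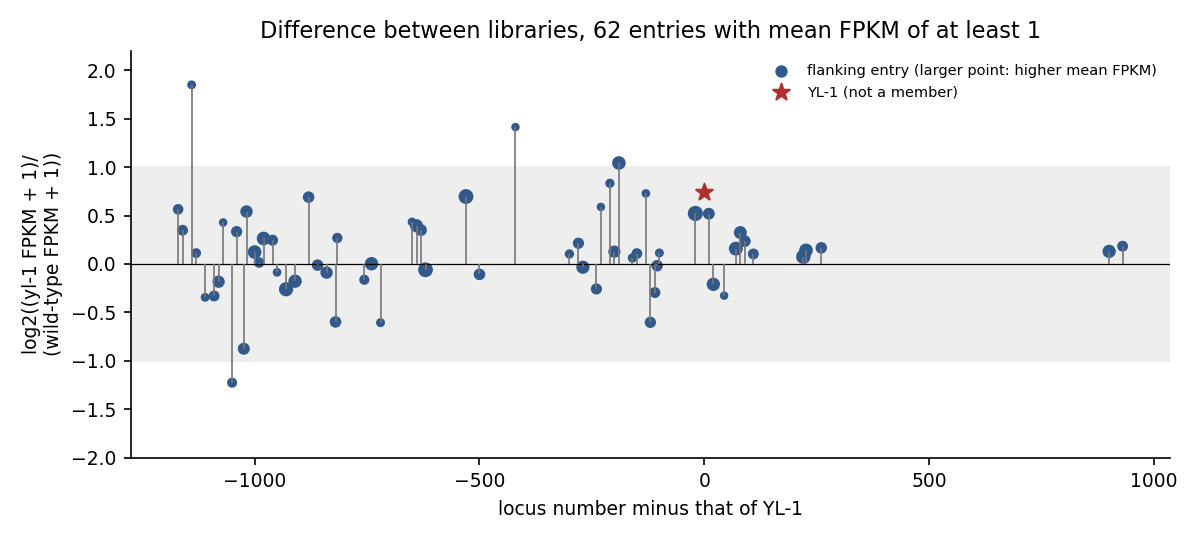
log2 ratio of the *yl-1*-labelled library to the WT-labelled library, with 1 FPKM added to each, for the 62 compared entries against locus number minus that of *YL-1*. Larger points have a higher mean FPKM, the grey band is 2-fold and the star is *YL-1*. Entries on both sides of 0 are found along the region, and 4 points leave the band, all before *YL-1*.

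Past 2-fold, 3 of 62 entries were higher in the *yl-1*-labelled library (4.84%), where 2.5% of all 14559 compared entries were, and 1 was lower (1.61%), where 3.65% were. These shares rest on so few entries that no difference from the table is read from them.
The 2 largest ratios belonged to entries of low level. LOC_Os01g16030 was at 0.112 FPKM in the WT-labelled library and 3.01 FPKM in the *yl-1*-labelled library (1.85), and LOC_Os01g16750 at 0.223 and 2.26 FPKM (1.41). Both would be larger with a smaller added value, 3.87 and 2.87 when 0.1 FPKM was added. The remaining entry was better transcribed. LOC_Os01g16980, named after its values were seen, was at 25.7 FPKM in the WT-labelled library and 54.0 FPKM in the *yl-1*-labelled library (1.04), which became 0.89 when the libraries were scaled to equal sums.
Going down, LOC_Os01g16120 was at 4.67 FPKM in the WT-labelled library and 1.43 FPKM in the *yl-1*-labelled library (-1.22). LOC_Os01g16146, at 14.8 and 7.63 FPKM (-0.87), stayed inside the band of 2-fold. These 2 entries lie close to each other, with LOC_Os01g16130 and LOC_Os01g16140 between them in number. LOC_Os01g16130 went the other way, from 5.66 FPKM in the WT-labelled library to 7.39 FPKM in the other, and LOC_Os01g16140 was listed at 0 in both.
The other abundant neighbours stayed within 2-fold. LOC_Os01g16640 was at 98.1 FPKM in the WT-labelled library and 159.6 FPKM in the *yl-1*-labelled library (0.70), and LOC_Os01g16550 at 119.5 and 114.6 FPKM (-0.060). The most abundant entries therefore differed among themselves, *Rpl5* and LOC_Os01g16640 being higher in the *yl-1*-labelled library and LOC_Os01g16550 nearly level.

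**Figure D3:**
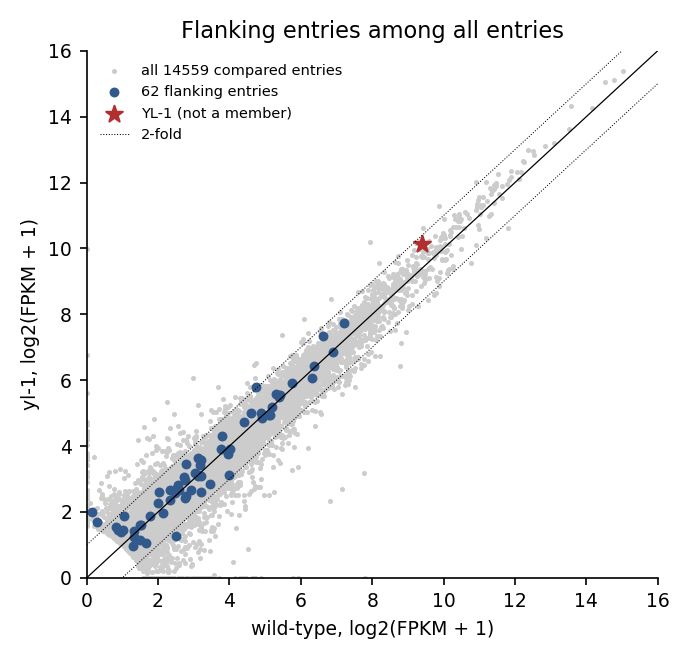
log2(FPKM + 1) in the *yl-1*-labelled library against that in the WT-labelled library, for all 14559 compared entries (grey), the 62 flanking entries (blue) and *YL-1* (star). The solid line is equality and the dotted lines are 2-fold, and the flanking entries lie within the cloud of the table.

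Entries listed at 0 in only 1 library were few and all low, named here after their values were seen. LOC_Os01g16714 and LOC_Os01g17320 were listed at 0 in the WT-labelled library and at 0.464 and 0.0780 FPKM in the other. LOC_Os01g16200, LOC_Os01g16910 and LOC_Os01g17470 were listed at 0 in the *yl-1*-labelled library and at 0.815, 0.136 and 1.43 FPKM in the WT-labelled library. All 5 had a mean under 1 FPKM and were not compared, so the 62 compared entries include none at 0. Above 0 in at least 1 library were 80 flanking entries, 78 in the WT-labelled and 77 in the *yl-1*-labelled library. For the whole table these numbers were 21694, 20902 and 19955. Such entries were rare among the compared entries of the table too, where leaving them out took 14559 to 14431.

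The entries leaned slightly to the *yl-1*-labelled library. Of the 62 compared, 40 (64.5%) were higher there and 22 lower, against 51.7% higher in the whole table and 50.2% on chromosome 1. The median log2 ratio was 0.12, against 0.014 for the table and 0.0019 for chromosome 1. This direction depends on how the libraries are scaled. FPKM summed to 1177 over the flanking entries in the WT-labelled library and to 1358 in the *yl-1*-labelled library, a ratio of 1.15, while the sums of the whole table had a ratio of 1.12. With the libraries scaled to equal sums, the median of the flanking entries turned to -0.016 and 46.8% were higher, while the median of the table fell to -0.12 with 35.9% higher. The distance of the neighbourhood from the table was 0.10 in both cases.
Other ranges of equal width lay on both sides of this value. Their medians ran from -0.079 (chromosome 3) to 0.29 (chromosome 10, 15 entries), with 4 of the 13 above the neighbourhood and 9 below. The adjacent ranges of chromosome 1 had -0.061 and -0.024. A median of 0.12 was therefore no higher than in several other places of the genome.

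**Figure D4:**
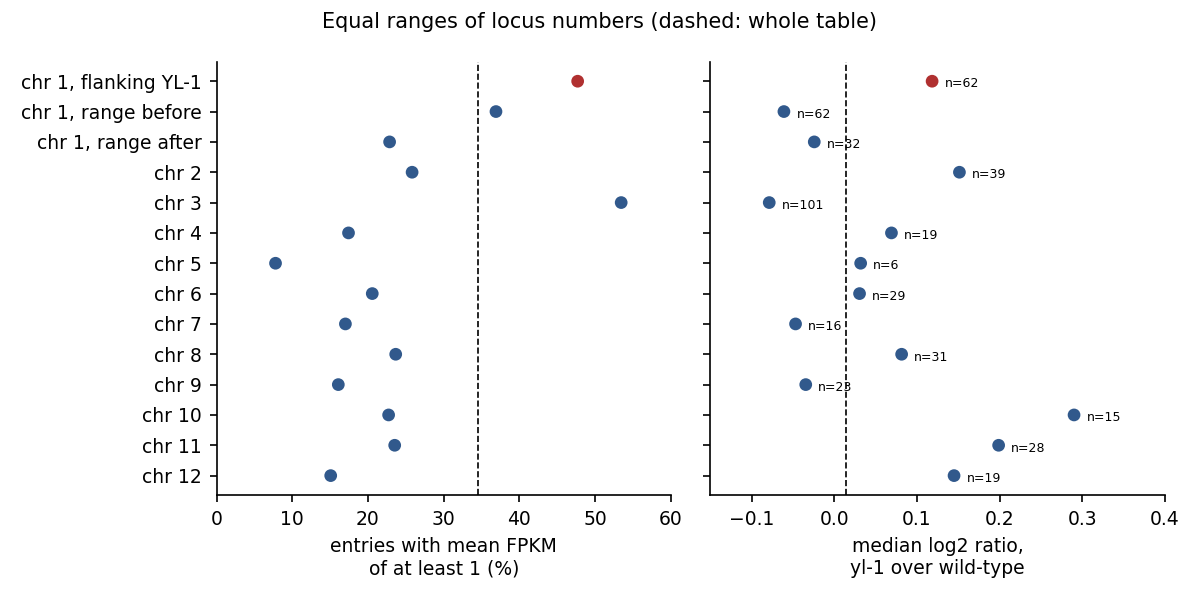
Share of entries with a mean of at least 1 FPKM (left, in percent) and median log2 ratio of the *yl-1*-labelled library to the WT-labelled library (right), for the *YL-1* neighbourhood (red) and 13 equal ranges of locus numbers (blue), 2 of them on chromosome 1. Dashed lines are the whole table, and n is the number of entries compared. The neighbourhood is second highest on the left and inside the range of the others on the right.

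Closeness to *YL-1* in the order of IDs went with no clear change in the ratio. Within 100 locus numbers of *YL-1*, 8 of 11 entries were compared, with a median log2 ratio of 0.20, 6 higher and 2 lower. More than 100 and up to 500 numbers away, 20 of 41 were compared, with a median of 0.11, 14 higher and 6 lower. Beyond 500, 34 of 78 were compared, with a median of 0.12, 20 higher and 14 lower. The size of the difference was 0.28, 0.15 and 0.30 in these groups, in the same order. The first group holds only 8 entries, and no error between libraries can be put on these medians.
On the side after *YL-1*, 10 of 12 compared entries were higher in the *yl-1*-labelled library (median 0.15), and on the side before it 30 of 50 (median 0.11). The last 9 compared entries, from LOC_Os01g17240 to LOC_Os01g18100, were all higher there, with ratios from 0.075 to 0.32. This was the longest run of 1 direction in the neighbourhood, singled out after its values were seen. No count of such runs in the whole table is given. The differences are small, and 5 of the 9 stayed above 0 when the libraries were scaled to equal sums. Of all compared entries of the table, 35.9% were above 0 with that scaling.
Neighbours in the order were about as unlike each other as neighbours in the whole table. The median difference in log2 ratio between adjacent compared entries was 0.33 over 61 pairs, against 0.37 over 14547 pairs of the whole table. Both entries of a pair lay on the same side of 0 in 37 of the 61 pairs (60.7%), against 52.0% in the table.

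By level, the 40 flanking entries from 1 to 10 FPKM had a median log2 ratio of 0.11, against 0.016 for the 8514 of the table. Past 2-fold, 2 of them (5.00%) were higher and 1 (2.50%) was lower, against 3.23% and 4.04% of the table at this level. The 19 from 10 to 100 FPKM had a median of 0.12, against -0.0020 for 5100, with 1 entry (5.26%) past 2-fold upwards and 0 downwards, against 1.41% and 2.94%. The 3 entries above 100 FPKM had a median of 0.52, which is the value of *Rpl5*, against 0.11 for 945 entries of the table, and 2 of the 3 were higher in the *yl-1*-labelled library.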

How the data were processed

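Leaf mRNA was selected by poly(A) and sequenced as paired-end fragments. The authors deposited FPKM values for both libraries, and the submitters' processing notes name TopHat, Cufflinks and Cuffdiff. Tool versions, the annotation, any filter and the build of the genome were not given in the sources used here. Whether strand was used in counting is not stated, so reads of overlapping neighbours cannot be told apart here. All columns of values were used, and they were assigned to genotypes by name.

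An entry that names several IDs was a member if any of them fell in the range, which concerned 1 entry. Entries that reached a mean of 1 FPKM were compared as log2((FPKM + 1) ratio), which understates the change of low genes. An exact 0 is given as listed at 0. The log2 ratios of the range were checked on a copy of the table without noise, in which all members were given the same shift. No upward shift past 2-fold was planted, and the stretches and scalings were not checked in this way. The members, ranges and alternatives were chosen with earlier results of these data known.

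Named entries were *Rpl5*, those from LOC_Os01g17100 to LOC_Os01g17250, the 5 compared entries nearest *YL-1* on each side, the 3 most abundant and the 2 with the largest ratio each way. Others were named after their values were seen. The work was done in Python 3.11.15 with pandas 2.3.3, numpy 2.4.6, matplotlib 3.10.9 and scipy 1.17.1.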

Additional observations from a re-analysis of the deposited data

How the results depend on the processing

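No paired analysis was possible because each genotype has a single library. Alternatives were other pseudocounts, filters, scalings, fold thresholds and widths of the range. Scaling the libraries to equal sums turned the median log2 ratio to -0.016 and took the share of higher entries from 64.5% to 46.8%, because that scaling lowers every ratio. The other alternatives kept the median between 0.074 and 0.14. Against 3 entries at least 2-fold higher (2.5% of the table), pseudocounts of 0.1 and 0.01 gave 5 and 6 (4.03% and 4.20% of the table), a mean of at least 5 FPKM gave 1 of 40 (1.73%), equal sums 2 (1.96%), the narrower range 2 of 28, and thresholds of 1.5-fold and 4-fold 8 and 0 (7.71% and 0.433%). Against 1 lower entry (3.65% of the table), a mean of at least 5 FPKM gave 0 (3.02%), no filter 2 of 80 (3.01%), equal sums 2 (4.68%), the narrower range 0, the wider range 4 of 107, and the thresholds 5 and 0 (9.57% and 0.680%). Such counts rest on a handful of entries. With a mean of at least 5 FPKM, 30.8% of the entries counted as expressed, against 21.1% of the table. The share was 53.8% over the narrower range and 39.9% over the wider one. The median size of the differences was 0.26 and ran from 0.21 to 0.28 under the alternatives. The median difference between adjacent entries was 0.33 and ran from 0.25 (narrower range) to 0.43 (no filter). The alternatives reuse the same or overlapping entries, so no interval is put on these values.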
